A study of Mus musculus with 51 samples.

Results

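The Nkx, Dlx, Irx, Lhx and Pax genes and the sine oculis homeobox genes (Six2, Six4 and Six5 among them) were followed through 3 histone marks in the E6.5 mouse embryo, when the epiblast, which gives rise to the embryo proper, lies beside the extra-embryonic ectoderm (ExE), which contributes to the placenta. The rule took every autosomal gene whose symbol was one of these 6 family names followed by digits and hyphens alone and was the symbol linked to a peak in any of the 6 allelic read tables. It found 37 genes among 18979 linked autosomal symbols, namely 2 Dlx, 5 Irx, 8 Lhx, 10 Nkx, 8 Pax and 4 sine oculis homeobox genes. The rule used no signal value beyond the presence of a linked peak of some mark. All 37 had a peak of H3K4me3, H3K27me3 or both over a transcription start site in each tissue, whether or not that peak was linked to their own symbol.

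H3K4me3, H3K27me3 and H3K36me3 had been profiled by ultra low-input native ChIP-seq in 36 libraries, 2 for each of 3 marks, 2 tissues and 3 crosses, with 15 input libraries. B6/CAST embryos were E6.5 hybrids of a C57BL6/Babr mother and a CAST/Ei father, and CAST/B6 embryos were the reciprocal hybrid of the same age; both were wild type. matDKO/CAST embryos were E6.5 hybrids of mothers on a C57BL6/Babr/129 background and CAST/Ei fathers. Their mothers had lost floxed Dnmt3a and Dnmt3b in the oocyte alone, through a Zp3-driven Cre, so that the embryos lacked DNA methylation inherited from the egg but carried a working paternal copy of each gene (Dnmt3a -/+, Dnmt3b -/+). Epiblast and ExE were separated by hand, and each library came from a pool of embryos, so that the spread between libraries is that between pools. The mixed maternal background of matDKO/CAST cannot be told apart from the loss of oocyte methylation.

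Homeobox genes encode transcription factors that bind DNA through a homeodomain and assign regional and cell identity during organ formation. Nkx genes act in heart, thyroid, lung and ventral neural tube, Dlx genes in forebrain, face and placenta, Irx genes in neural tube, heart and limb, Lhx genes (which add LIM domains) in neurons and pituitary, Pax genes (which add a paired domain) in eye, kidney, muscle and neural tube, and sine oculis homeobox genes in eye, kidney and muscle. The shared label holds only in part for Pax, since Pax1 has a paired domain and no homeodomain, and Pax2, Pax5 and Pax8 keep only part of one. Before gastrulation most of these genes are silent, and their CpG-rich promoters are classical examples of bivalent chromatin, where the Polycomb mark H3K27me3 and the promoter mark H3K4me3 are found over the same start. H3K36me3 lies over the body of genes that are being transcribed.

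The promoters of 4 members whose signal is described at length are given here from RefSeq on GRCm38.p6, from 250 bases before to 50 after the annotated start, with each CpG in capitals. Irx4 (chr13:73260247-73260546, plus strand) held 31 CpGs, Lhx3 (chr2:26208200-26208499, minus strand) 13, Six4 (chr12:73113196-73113495, minus strand) 16 and Pax8 (chr2:24475550-24475849, minus strand) 7.
Irx4: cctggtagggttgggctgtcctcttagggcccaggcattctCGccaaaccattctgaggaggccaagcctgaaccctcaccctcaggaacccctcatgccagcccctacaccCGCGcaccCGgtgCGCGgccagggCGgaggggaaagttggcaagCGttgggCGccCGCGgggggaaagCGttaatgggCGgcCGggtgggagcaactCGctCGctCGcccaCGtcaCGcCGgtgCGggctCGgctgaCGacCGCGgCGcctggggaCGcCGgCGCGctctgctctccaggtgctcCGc
Lhx3: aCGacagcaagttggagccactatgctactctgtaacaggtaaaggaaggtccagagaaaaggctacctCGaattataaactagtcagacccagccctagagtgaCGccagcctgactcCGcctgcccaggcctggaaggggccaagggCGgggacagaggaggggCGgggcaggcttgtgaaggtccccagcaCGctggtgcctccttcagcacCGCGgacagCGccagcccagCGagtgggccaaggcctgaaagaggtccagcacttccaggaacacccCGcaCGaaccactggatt
Six4: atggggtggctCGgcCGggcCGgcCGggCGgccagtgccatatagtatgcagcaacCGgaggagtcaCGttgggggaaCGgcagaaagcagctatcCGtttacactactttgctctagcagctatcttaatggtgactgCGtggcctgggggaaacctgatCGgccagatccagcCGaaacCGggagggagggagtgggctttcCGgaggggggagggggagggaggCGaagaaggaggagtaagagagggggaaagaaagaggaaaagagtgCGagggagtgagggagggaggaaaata
Pax8: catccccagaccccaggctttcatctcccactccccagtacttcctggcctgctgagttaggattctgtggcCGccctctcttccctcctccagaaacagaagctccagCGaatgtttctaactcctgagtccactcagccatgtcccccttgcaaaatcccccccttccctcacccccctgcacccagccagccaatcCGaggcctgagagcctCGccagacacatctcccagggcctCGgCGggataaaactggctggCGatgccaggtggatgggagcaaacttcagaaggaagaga
Of the 37 genes, 27 had a promoter in the table, and 6 of these had more than 1. The second of Lhx3 (chr2:26206526-26206825) held 28 CpGs and that of Six4 (chr12:73113376-73113675) 15. The counts that follow use the first listed promoter of each gene. The members' median number of CpGs per 300 bases was 17, against 7 over 25748 autosomal genes with a promoter of the same length, and 22 of the 27 (81.5%) held at least 10, against 44.5% of all. The homeodomain core TAAT, searched on both strands (TAAT or ATTA), was present in 14 of the 27 (51.9%) and in 58.2% of all promoters.

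Deposited RPKM values corresponded to 4.01 to 17.9 M reads (M, mega) for H3K4me3 libraries, 3.68 to 22.9 M for H3K27me3 and 2.09 to 12.6 M for H3K36me3. Mean signal in the 1 kb windows at the members' starts was 15.9 to 25.0 times the genome mean in the 6 epiblast H3K4me3 libraries and 9.24 to 17.8 times in the 6 from ExE. For H3K27me3 it was 9.43 to 22.6 times in epiblast and 7.45 to 13.1 times in ExE, while the inputs stood at 0.772 to 1.15 times. The 99th percentile of all windows, a measure of how strongly a library was enriched, was 9.41 to 13.2 RPKM for H3K4me3 in epiblast and 6.94 to 12.4 in ExE, so that enrichment moved with tissue in part. The tissue labels were checked with marker genes: summed H3K4me3 at the starts of 8 epiblast markers was 174 to 211 RPKM in the 4 wild-type epiblast libraries and 52.9 to 88.4 in the 4 from ExE, and for 10 ExE markers it was 147 to 201 and 200.2 to 263. Visceral endoderm markers, a tissue that surrounds both, summed to 72.3 to 120.1 RPKM of H3K4me3 in epiblast and 97.6 to 149 in ExE. Their H3K27me3 was 29.5 to 47.3 RPKM in epiblast and 12.7 to 19.5 in ExE, and 6 of 11 were called lower in ExE at the start, the same direction as the members' H3K27me3 described further on. H3K36me3 over their gene bodies was called higher at 8 of 11, and no marker of any list was at 0 in all libraries. The part of such cells in the results below was not tested, and in pooled tissue fewer cells carrying a mark and less mark per cell cannot be told apart.

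Both marks lay over the starts of nearly all members in both tissues. In epiblast 34 of 37 had an H3K4me3 and an H3K27me3 peak over a start site, against 23.2% of 20632 other autosomal genes. Nkx6-3 and Pax4, which act in gut and pancreas, had H3K27me3 alone, and Six5, active in lens and muscle, had H3K4me3 alone. In ExE the number was 35 of 37, against 27.8% of other genes, because a 24.5 kb H3K27me3 peak covered the Six5 start there. In epiblast a 23.5 kb H3K27me3 peak overlapped Six5 too, but it began at position 19095501, just past the start at 19094594. The ExE peak began at 19094501, so the change at Six5 was a shift of a peak edge.

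H3K4me3 was lower in ExE than in epiblast at 29 of the 33 members with a linked H3K4me3 peak, and higher at 0 (1 at an unadjusted p below 0.05, and Irx4 alone with edgeR or DESeq2 on recovered reads). Over all 15863 genes measured in the same way 18.0% were lower and 12.2% higher (limma on log2(RPKM + 0.5), wild-type ExE minus epiblast averaged over both crosses, Benjamini-Hochberg adjusted over all genes). The members' median log2 difference was -0.77, which corresponded to a median level in ExE of 54.5% of that in epiblast, while the median over all genes was -0.03. All 7 Lhx and 7 Pax genes measured were lower, as were 9 of 10 Nkx, 1 of 2 Dlx and 2 of 4 Irx genes. The values are means over all 1 kb windows of the peaks linked to a gene in either tissue, 3 to 61 windows per member. Irx2, Lhx1, Pax6 and Six5 had no H3K4me3 peak linked to their symbol and are covered only by the start site windows described further on.

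Among the largest differences were those at genes of the pancreas, pituitary, sclerotome and hypothalamus. At Pax4, a factor of the insulin-producing beta cell, the libraries held 5.1 and 6.41 RPKM in epiblast of B6/CAST, 4.25 and 3.47 in that of CAST/B6 and 5.78 and 4.43 in that of matDKO/CAST, and in the same order 1.49 and 1.6, 0.485 and 0.947 and 0.550 and 0.920 in ExE. Every ExE library lay below every epiblast library (log2 difference -1.73 ± 0.13 SE, adjusted p = 5.9e-35). The 4 windows of this peak lie upstream of Pax4, beginning 0.648 kb beyond the nearest annotated start.
Lhx3, required for pituitary and motor neuron identity, had 3.39 and 5.01 RPKM in epiblast of B6/CAST, 2.13 and 2.25 in that of CAST/B6 and 4.05 and 3.51 in that of matDKO/CAST, and in the same order 1.17 and 1.27, 0.528 and 0.626 and 0.569 and 0.868 in ExE. These groups were also fully separate (difference -1.38 ± 0.14 SE, adjusted p = 8.3e-22). For Pax1, which patterns the sclerotome, H3K4me3 was 4.14 and 5.53 RPKM in epiblast of B6/CAST, 2.61 and 2.61 in that of CAST/B6 and 6.15 and 3.74 in that of matDKO/CAST, and in the same order 1.63 and 1.52, 0.646 and 0.870 and 0.886 and 0.989 in ExE, again without overlap (-1.33 ± 0.13 SE, adjusted p = 6.0e-21). This Pax1 value rests on 3 windows of a peak linked to the gene in ExE only, yet the signal was higher in epiblast.
In the case of Lhx5, a forebrain and hypothalamus factor, it was 4.84 and 5.59 RPKM in epiblast of B6/CAST, 2.84 and 3.4 in that of CAST/B6 and 5.22 and 3.9 in that of matDKO/CAST, and in the same order 1.9 and 2.27, 0.711 and 0.997 and 0.819 and 1.63 in ExE (-1.28 ± 0.14 SE, adjusted p = 1.9e-19), and the tissues did not overlap. In the H3K4me3 fit each gene's spread was in effect set to the trend over all genes, which makes its p-values very small; with each gene's own spread 25 of the 33 were lower (13.3% of all genes). The 4 ExE libraries lay below the 4 epiblast libraries at 17 of 33 members, against 12.1% of all genes, and above them at none.

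Six4 kept the highest H3K4me3 of the family set in epiblast. It had 16.5 and 12 RPKM in epiblast of B6/CAST, 18.7 and 14.4 in that of CAST/B6 and 15.8 and 13 in that of matDKO/CAST, and in the same order 9.13 and 8.61, 9.16 and 11 and 8.14 and 11.5 in ExE, with the wild-type groups separate (-0.66 ± 0.18 SE, adjusted p = 0.0011). Irx3 and Irx4, of a family that patterns the neural tube and heart, and the placental gene Dlx3 stood at the other end of the differences. Irx3 had 11.7 and 9.43 RPKM in epiblast of B6/CAST, 10.8 and 6.55 in that of CAST/B6 and 10.8 and 8.12 in that of matDKO/CAST, and in the same order 11.7 and 9.65, 9.07 and 10.4 and 8.3 and 11 in ExE, and the tissues overlapped (0.10 ± 0.17 SE, adjusted p = 0.78). Dlx3 had 3.04 and 3.13 RPKM in epiblast of B6/CAST, 1.87 and 1.53 in that of CAST/B6 and 3.18 and 2.32 in that of matDKO/CAST, and in the same order 2.66 and 2.21, 1.92 and 1.57 and 1.54 and 2.49 in ExE, also with overlap (-0.13 ± 0.13 SE, adjusted p = 0.57). These were the pair nearest to 0. Nkx2-4 (log2 difference -0.32, adjusted p = 0.076) and Irx4 (0.32, adjusted p = 0.063) were the other members that did not pass. With the replicate number as a block, Irx4 was called higher in ExE (0.35, adjusted p = 9.6e-04). This block pairs the tissues at both replicates of B6/CAST but only at replicate 2 of CAST/B6.

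The direction held in each cross. Lower H3K4me3 in ExE was called at 22 of 33 members in B6/CAST alone (10.5% of all genes), 26 in CAST/B6 (12.6%) and 25 in matDKO/CAST (14.7%), and higher H3K4me3 at 0 in each (8.93%, 4.30% and 5.21% of all genes; 0 also at an unadjusted p below 0.05). CAST/B6 ExE replicate 1 had the lowest mean signal over the members and the weakest enrichment of the ExE libraries (99th percentile 6.94 RPKM), and without it 24 of 33 were lower. When each library was centred on its median or scaled to its enrichment, 26 members were lower (15.5% and 16.7% of all genes) and Irx3 and Irx4 were higher in ExE (35.3% and 42.6%); centring moved the median of all genes from -0.03 to 0.14, and the share of higher genes among all called genes from 40.4% to 69.6%, while the members' median stayed 0.74 below that of all genes.

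Windows within 1 kb of the annotated starts, which do not use the peak calls and cover all 37 members, gave fewer calls. H3K4me3 was lower at 17 of 37 (8.34% of 20669 genes) and higher at Irx4 alone (1.94% of genes), with a median of -0.61 against -0.02 over all genes. Among the 17 were 5 Lhx, 6 Pax, 4 Nkx and 1 Dlx gene. Lhx5 (-1.52), Lhx3 (-1.41), the B cell factor Pax5 (-1.22), Lhx9 (-1.19), the thyroid and kidney factor Pax8 (-1.16) and the muscle stem cell factor Pax7 (-1.12) differed most, with the groups separate in each. At the Pax8 start the libraries held 11.2 and 11.1 RPKM in epiblast of B6/CAST, 8.25 and 8.07 in that of CAST/B6 and 10.8 and 6.16 in that of matDKO/CAST, and in the same order 6.64 and 6.28, 2.17 and 2.64 and 3.82 and 5.7 in ExE (adjusted p = 0.0047). Within a cross 3 members were lower at the start in B6/CAST (2.44% of genes), 10 in CAST/B6 (4.78%) and 11 in matDKO/CAST (5.13%), and 0 higher (0.445%, 0.547% and 0.561%). Irx1, called lower over its whole peak (-0.40, adjusted p = 0.038), stood at 0.03 at its start.

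Irx4, a heart ventricle factor, was the member with higher H3K4me3 at the start in ExE. Its start windows had 8.22 and 6.09 RPKM in epiblast of B6/CAST, 5.59 and 4.41 in that of CAST/B6 and 7.4 and 6.24 in that of matDKO/CAST, and in the same order 11.9 and 8.74, 9.46 and 9.73 and 8.15 and 10.3 in ExE. All 4 wild-type ExE libraries lay above the 4 epiblast libraries (0.69 ± 0.16 SE, adjusted p = 0.023), although in matDKO/CAST the difference was 0.40 and did not pass (adjusted p = 0.5). Irx2 had 19.1 and 13.5 RPKM in epiblast of B6/CAST, 12.8 and 10.5 in that of CAST/B6 and 15.9 and 11.6 in that of matDKO/CAST, and in the same order 24.2 and 18.3, 15.1 and 19.2 and 19 and 23.5 in ExE, with the wild-type groups overlapping (0.46 ± 0.18 SE, adjusted p = 0.17). Irx6, on the other Irx cluster, had a difference that did not pass (-0.51 ± 0.14 SE, adjusted p = 0.052).

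Other genes with both marks over the start had lower H3K4me3 in ExE more often than genes at large. Of the other genes with both marks in epiblast, 39.7% of 3899 were lower for H3K4me3 over their peaks (27 of 31 members) and 28.8% of 4782 at their starts (16 of 34 members). Lower H3K4me3 at the members has to be read against this group, in which the median difference was -0.24 over peaks and -0.30 at starts. Both this group and the members set beside it were chosen by peaks in epiblast. That choice by itself favours lower signal of either mark in ExE.

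H3K27me3 over linked peaks was also lower in ExE at many members, whereas more of all genes were called higher than lower. At start site windows, described further on, more of all genes were called lower than higher. Over linked peaks 12 of 26 members were lower and 2 higher, whereas 12.6% of 11046 genes were lower and 49.1% higher. The members' median was -0.23 and that of all genes 0.21. Among 3542 other genes with both marks over the start in epiblast, 21.5% were lower and 33.3% higher (median 0.10), against 12 and 1 of 25 members. Lower signal was called at 4 of 7 Nkx, 3 of 6 Lhx, 2 of 5 Pax, 2 of 4 Irx and 1 of 1 Dlx genes, and the 2 higher genes were Six4 and Six5. Dlx3 and Nkx2-4, both called lower, and Pax7 had a linked peak in epiblast only, and Lhx1 in ExE only. At these genes the choice of windows favoured a higher value in the tissue of the peak. Dlx4, Irx2, Lhx3, Lhx6, Nkx2-9, Nkx6-3, Pax1, Pax4, Pax6 and Six2 were among the members with no H3K27me3 peak linked to their symbol, although each of these had such a peak over its start.

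The largest decrease was at Irx1, a proximal tubule and neural factor. Its peak windows had 2.58 and 3.42 RPKM in epiblast of B6/CAST, 3.85 and 3.59 in that of CAST/B6 and 2.56 and 1.85 in that of matDKO/CAST, and in the same order 1.24 and 1.21, 1.77 and 1.45 and 1.16 and 1.01 in ExE. All ExE libraries lay below all epiblast libraries of any cross (-1.01 ± 0.13 SE, adjusted p = 3.0e-06). Nkx3-2, a factor of cartilage and spleen, had 2.83 and 3.14 RPKM in epiblast of B6/CAST, 4.66 and 4.33 in that of CAST/B6 and 2.61 and 1.97 in that of matDKO/CAST, and in the same order 1.87 and 1.69, 2.31 and 2.07 and 1.85 and 1.32 in ExE (-0.75 ± 0.14 SE, adjusted p = 1.0e-04). Irx4 had 2.16 and 2.58 RPKM in epiblast of B6/CAST, 3.53 and 3.34 in that of CAST/B6 and 2.2 and 1.43 in that of matDKO/CAST, and in the same order 1.37 and 1.34, 1.68 and 1.65 and 1.36 and 1.05 in ExE (-0.74 ± 0.13 SE, adjusted p = 1.0e-04). In both the wild-type libraries of the tissues were separate.
Lhx8, a factor of forebrain cholinergic neurons and oocytes, had 3.26 and 3.38 RPKM in epiblast of B6/CAST, 4.37 and 4.05 in that of CAST/B6 and 2.72 and 1.7 in that of matDKO/CAST, and in the same order 2.05 and 1.75, 2.47 and 2.12 and 1.98 and 1.6 in ExE, with separate wild-type groups (-0.71 ± 0.14 SE, adjusted p = 2.5e-04). Lhx9 (-0.64), the neural crest factor Pax3 (-0.64), the thyroid and lung factor Nkx2-1 (-0.52), Dlx3 (-0.50), Lhx4 (-0.35), the heart factor Nkx2-5 (-0.34), Nkx2-4 (-0.33) and Pax8 (-0.31) were the other 8. Their epiblast and ExE libraries overlapped except at Pax3 and Nkx2-5.

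Six4, a factor of muscle and kidney, moved the other way. H3K27me3 over its peak was 0.703 and 0.573 RPKM in epiblast of B6/CAST, 0.844 and 0.778 in that of CAST/B6 and 0.547 and 0.479 in that of matDKO/CAST, and in the same order 1.37 and 1.29, 1.58 and 1.67 and 1.22 and 0.942 in ExE, with every ExE library above every epiblast library (0.69 ± 0.09 SE, adjusted p = 3.2e-06). Six5 had 1.31 and 1.07 RPKM in epiblast of B6/CAST, 1.61 and 1.16 in that of CAST/B6 and 1.15 and 1.03 in that of matDKO/CAST, and in the same order 2.02 and 1.69, 2.2 and 2.09 and 1.7 and 1.47 in ExE, and the wild-type groups were separate too (0.49 ± 0.12 SE, adjusted p = 0.0019). The pair nearest to 0 were Pax5 and Nkx1-1. Pax5 had 1.36 and 1.27 RPKM in epiblast of B6/CAST, 1.77 and 1.55 in that of CAST/B6 and 1.28 and 1.02 in that of matDKO/CAST, and in the same order 1.43 and 1.25, 1.67 and 1.6 and 1.49 and 1.1 in ExE (0.00 ± 0.12 SE), and Nkx1-1 had 1.39 and 1.32 RPKM in epiblast of B6/CAST, 1.75 and 1.49 in that of CAST/B6 and 1.33 and 1.07 in that of matDKO/CAST, and in the same order 1.41 and 1.2, 1.7 and 1.56 and 1.5 and 1.14 in ExE (-0.02 ± 0.12 SE). Both rest on long peaks, of 257 and 178 windows, in which signal near and far from the start is averaged.

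In B6/CAST alone 6 of 26 members were lower (7.40% of all genes), in CAST/B6 9 (10.7%) and in matDKO/CAST 1 (5.81%), where the members' median difference was -0.01. The 4 ExE libraries lay below the 4 epiblast libraries at 6 of 26 members, against 9.14% of genes, and above them at Six4 and Six5, against 38.7%. Leaving out any one wild-type library left 8 or 9 lower. The count rose to 23 with each library centred on its median, when the median of all genes fell from 0.21 to 0.03 and the share of all genes called lower rose to 23.5%, and to 22 with enrichment scaling (18.2% of all genes); Six4 and Six5 were higher in each of these.

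At the start sites the decrease in H3K27me3 was larger and took in all 5 Irx members. In ExE 18 of 37 members were lower (10.2% of 20669 genes) and Six4 was higher (6.43%), with a median of -0.56 against -0.05 over all genes. The 5 Irx genes were all lower, as were 4 of 10 Nkx, 4 of 8 Pax, 3 of 8 Lhx and 1 of 2 Dlx genes. The libraries of the tissues did not overlap at 16 members below (12.6% of genes) and at Six4 above (9.77%). Among other genes with both marks in epiblast, 29.6% were lower at the start and 7.88% higher. Within a cross fewer passed, namely 3 in B6/CAST (1.79% of genes), 7 in CAST/B6 (3.93%) and 2 in matDKO/CAST (1.16%). Six4 was the 1 member higher in B6/CAST (0.523%), and none was higher in CAST/B6 (1.48%; 1 at an unadjusted p below 0.05) or matDKO/CAST (0.837%; 2).

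The Irx genes stand in a pair of clusters, Irx1, Irx2 and Irx4 on chromosome 13 and Irx3 and Irx6 on chromosome 8, so they are not independent observations. At the Irx4 start H3K27me3 was 8.14 and 9.34 RPKM in epiblast of B6/CAST, 13.2 and 12.7 in that of CAST/B6 and 8.23 and 4.62 in that of matDKO/CAST, and in the same order 4.02 and 3.35, 4.58 and 4.33 and 3.61 and 2.75 in ExE (-1.29 ± 0.18 SE, adjusted p = 0.0027). At Irx2 it was 2.29 and 3.48 RPKM in epiblast of B6/CAST, 4.99 and 4.37 in that of CAST/B6 and 2.79 and 2.18 in that of matDKO/CAST, and in the same order 1.12 and 1.31, 1.43 and 1.54 and 1.13 and 0.808 in ExE (-1.17 ± 0.14 SE, adjusted p = 0.0014). In both every wild-type ExE library lay below every epiblast library, as it did at Irx1 (-1.25), Irx3 (-0.89) and Irx6 (-0.75). The direction at the Irx starts was the same under every scaling tried. Outside the family the largest decreases were at Lhx3 (-1.10), Pax8 (-1.09) and Nkx2-5 (-1.03). At the Lhx3 start the values were 4.51 and 5.87 RPKM in epiblast of B6/CAST, 8.46 and 7.0 in that of CAST/B6 and 4.83 and 2.77 in that of matDKO/CAST, and in the same order 2.32 and 2.38, 3.47 and 2.68 and 2.79 and 1.65 in ExE, with the wild-type groups separate.

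Six4 at its start had 0.641 and 0.660 RPKM in epiblast of B6/CAST, 0.988 and 1.37 in that of CAST/B6 and 0.766 and 0.725 in that of matDKO/CAST, and in the same order 2.26 and 2.0, 2.23 and 2.13 and 2.02 and 1.2 in ExE. The wild-type ExE libraries were all above the epiblast libraries (0.94 ± 0.14 SE, adjusted p = 0.0031). At the Six5 start the difference was 0.30 and did not pass. Epiblast H3K27me3 at the starts ranged from 0.454 RPKM at Six5 to 13.3 at Lhx6, with a median of 6.79.

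**Figure D1:**
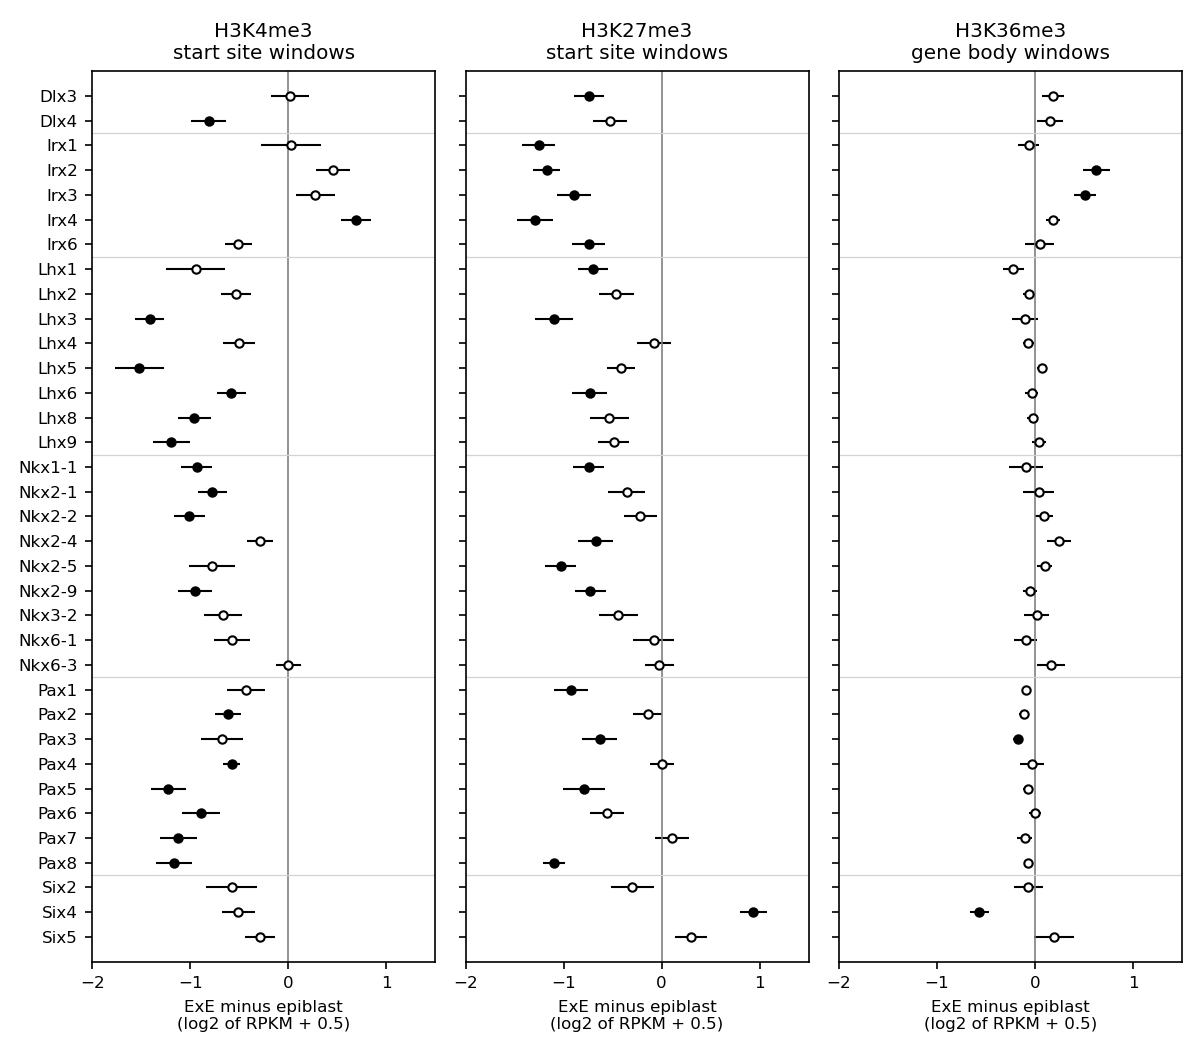
Difference between wild-type ExE and epiblast (log2 of RPKM + 0.5, x axis) for 35 of the genes (y axis, grouped by family) in H3K4me3 and H3K27me3 at start site windows and H3K36me3 over gene bodies. Points are limma estimates over 4 libraries per tissue, bars are ± 1 SE, and filled points have an adjusted p below 0.05: 16 filled points lie left of 0 for H3K4me3 and 17 for H3K27me3, Irx4 is filled on the right for H3K4me3 and Six4 for H3K27me3.

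The 2 promoter marks moved down together at some members and apart at others. At the starts 27 of 37 members had a negative difference for both marks, 5 for H3K4me3 only, 5 for H3K27me3 only and 0 for neither, and 7 were called lower for both (limma). Over all genes 30.9% had a negative difference for both marks and 0.982% were called lower for both, and among the 4782 other genes with both marks in epiblast 2151 were negative and 190 (3.97%) called lower for both. Across the 37 members, which share libraries, Pearson's r between the 2 differences was -0.14. Lhx3, Pax5 and Pax8 fell in both marks, while at the 5 Irx starts H3K27me3 fell and no decrease of H3K4me3 was called, and over the Six4 peaks H3K27me3 rose and H3K4me3 fell.

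The difference was largest within 10 kb of the start. Mean H3K27me3 over the members 1 to 3 kb from a start was 8.62 RPKM in epiblast (6.73 to 10.4 over 4 wild-type libraries) and 4.94 in ExE (4.10 to 5.88). The ratio of ExE to epiblast was 0.661 within 1 kb, 0.573 at 1 to 3 kb, 0.560 at 3 to 5 kb and 0.778 at 10 to 20 kb, and it reached 1.12 at 20 to 50 kb. For H3K4me3 it was 0.730 within 1 kb, 0.510 at 3 to 5 kb, 0.728 at 10 to 20 kb, 0.929 at 20 to 50 kb and 0.852 at 50 to 100 kb. Ratios for other genes ran from 0.853 to 1.09, and those for the members in the inputs from 0.861 to 0.969.

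**Figure D2:**
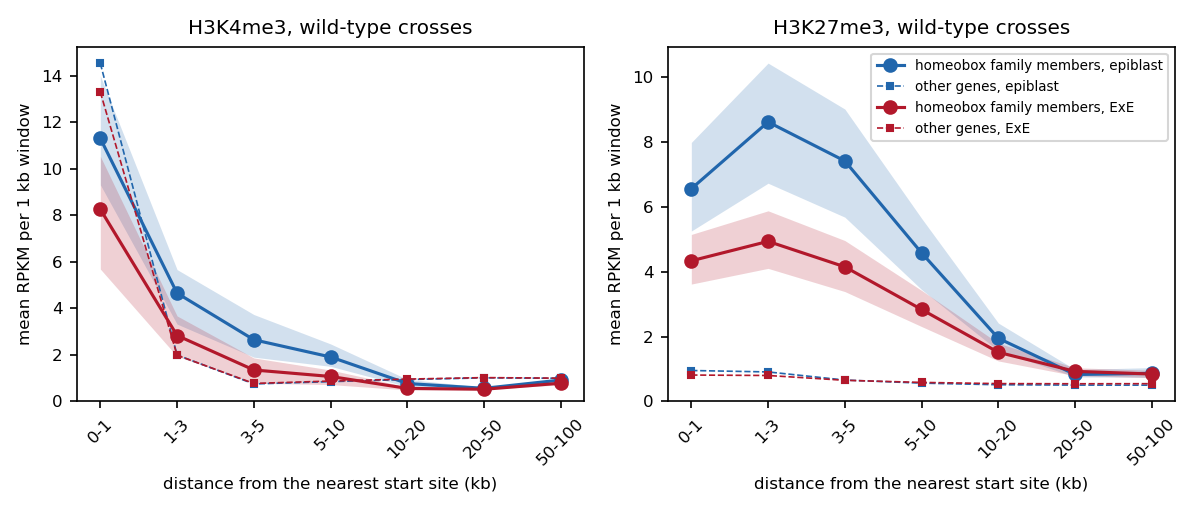
Mean RPKM per 1 kb window (y axis) by distance from the nearest start site in kb (x axis, unequal bins) for H3K4me3 (left) and H3K27me3 (right), for the 37 members (circles, solid) and other genes (squares, dashed) in wild-type epiblast (blue) and ExE (red). Bands span the lowest and highest of 4 libraries; the members' H3K27me3 at 1 to 3 kb is 8.62 RPKM in epiblast and 4.94 in ExE.

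Peaks over the starts changed in extent. The longest H3K27me3 peak over a member's start had a median length of 41.25 kb in epiblast (36 members with a peak) and 77.5 kb in ExE (37 members). It was longer in ExE at 34 of 37 members, shorter at Lhx9 (30 kb and 29.5 kb) and equal at Irx1 and Pax8. Among the 34 was Six5, whose 23.5 kb epiblast peak began just past the start and so was not counted. Of 8128 other genes with such a peak in either tissue 91.6% were longer in ExE (medians 12.5 and 37.5 kb), so that the members did not stand apart in this. At Pax7 it ran over 122.5 kb in epiblast and 441.5 kb in ExE, at Pax2 over 273 and 320 kb and at Irx4 over 35 and 75 kb. H3K4me3 peaks over the start were shorter in ExE at 28 members, longer at 3 and equal at 6 (Nkx6-3 and Pax4, with no such peak, among them), with medians of 17.5 and 13.5 kb against 4.5 and 6 kb for other genes, of which 24.2% were shorter and 56.9% longer. Pax3 (34 and 18 kb), Lhx2 (28.5 and 15.5 kb) and Pax5 (18 and 8.5 kb) were among the members whose H3K4me3 peak was shorter. Peaks were called on each tissue separately, so that their length also depends on the depth and enrichment of its libraries. Neighbours such as Dlx3 and Dlx4 shared 1 H3K27me3 peak in either tissue.

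**Figure D3:**
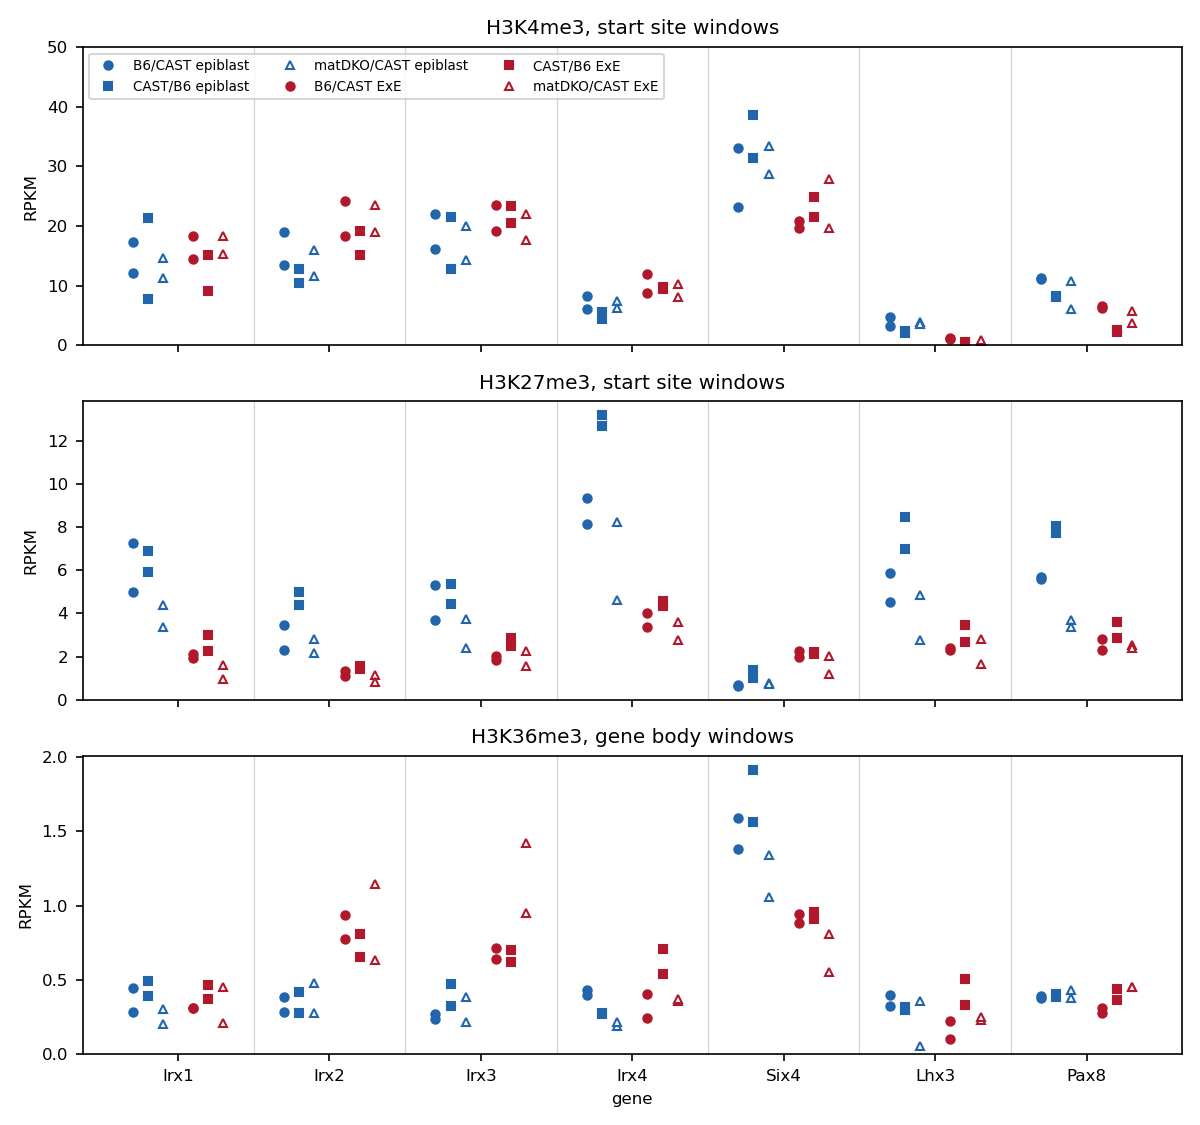
RPKM (y axes) in every library for 7 members (x axis), in H3K4me3 and H3K27me3 start site windows and H3K36me3 gene body windows. Blue is epiblast and red ExE; circles are B6/CAST, squares CAST/B6 and open triangles matDKO/CAST, 2 libraries each. H3K27me3 at the 4 Irx genes shown is higher in the wild-type epiblast than in ExE, Six4 shows the reverse, and Irx2 and Irx3 have higher H3K36me3 in ExE.

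H3K36me3, the mark of transcribed gene bodies, was low over most members, and only 7 had a linked H3K36me3 peak in either tissue. Of these Irx2 and Irx3 were higher in ExE (56.7% of 10499 genes were) and Six4 and Pax3 lower (15.1% of genes were). Irx2 and Irx3 had such a peak in ExE only, so that a higher value there was favoured by the choice of windows. Irx2 was linked to no other peak of any mark and entered the set through this peak. Irx2 had 0.408 and 0.318 RPKM in epiblast of B6/CAST, 0.395 and 0.359 in that of CAST/B6 and 0.638 and 0.297 in that of matDKO/CAST, and in the same order 1.09 and 1.03, 0.756 and 0.674 and 0.743 and 1.34 in ExE, with wild-type groups separate (0.66 ± 0.13 SE, adjusted p = 0.0014). Irx3 had 0.223 and 0.357 RPKM in epiblast of B6/CAST, 0.484 and 0.849 in that of CAST/B6 and 0.479 and 0.535 in that of matDKO/CAST, and in the same order 1.21 and 1.15, 1.34 and 0.674 and 1.64 and 2.99 in ExE, with overlap, over 2 windows (0.72 ± 0.17 SE, adjusted p = 0.0038). Neither passed in CAST/B6 alone. With median centring or enrichment scaling the same 2 were higher (26.9% and 17.0% of all genes) and Lhx1 joined Six4 and Pax3 as lower (25.2% and 22.7%).
Six4 had 1.77 and 1.54 RPKM in epiblast of B6/CAST, 1.73 and 2.06 in that of CAST/B6 and 1.44 and 1.26 in that of matDKO/CAST, and in the same order 1.03 and 0.953, 1.05 and 0.992 and 0.595 and 0.855 in ExE, and no ExE library reached the epiblast values (-0.59 ± 0.08 SE, adjusted p = 2.6e-04). Pax3 had 0.520 and 0.622 RPKM in epiblast of B6/CAST, 1.04 and 1.21 in that of CAST/B6 and 0.479 and 0.475 in that of matDKO/CAST, and in the same order 0.441 and 0.478, 0.704 and 0.494 and 0.495 and 0.686 in ExE, with overlap (-0.36 ± 0.09 SE, adjusted p = 0.0036). Nearest to 0 were the eye factor Pax6, with 1.02 and 0.636 RPKM in epiblast of B6/CAST, 0.538 and 0.679 in that of CAST/B6 and 0.574 and 0.606 in that of matDKO/CAST, and in the same order 0.989 and 0.689, 0.659 and 0.458 and 0.773 and 0.823 in ExE (-0.03 ± 0.11 SE), and Irx4, with 0.891 and 0.556 RPKM in epiblast of B6/CAST, 0.215 and 0.340 in that of CAST/B6 and 0.00 and 0.178 in that of matDKO/CAST, and in the same order 0.115 and 0.143, 0.927 and 0.404 and 0.00 and 0.187 in ExE in its single window (-0.20 ± 0.19 SE). Lhx1 stood at -0.21 ± 0.10 (SE), which did not pass.

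Over whole gene bodies, measured for all 37 members, the same 4 genes passed. The bodies of Irx2 and Irx3 overlap their peaks called in ExE, so these windows are not independent of that choice. Irx2 (0.63) and Irx3 (0.51) were higher (31.0% of 20753 genes were), and Six4 (-0.57) and Pax3 (-0.17) lower (6.23%). Epiblast gene body signal was 1.61 RPKM at Six4 and 1.03 at Lhx1, and the median over members was 0.329. The 3 marks can thus be read side by side for a pair of genes. At Irx2, in ExE, H3K27me3 at the start was lower, H3K36me3 over the body higher and H3K4me3 at the start not called (0.46), whereas at Six4 H3K27me3 was higher, and H3K36me3 and peak H3K4me3 lower.

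Embryos without oocyte DNA methylation were compared with the wild type within each tissue, to ask whether the marks at these genes depend on methylation inherited from the egg. H3K27me3 in epiblast was lower in matDKO/CAST at 7 of 26 members and higher at none (6.41% and 0.779% of genes; limma, 20 of 26 lower at an unadjusted p below 0.05). Among them were Lhx9, Lhx8, Nkx2-4, Dlx3, Nkx3-2 and Irx4. At Lhx9, a gonad and limb factor, the epiblast libraries held 3.47 and 3.98 RPKM in B6/CAST, 5.85 and 5.31 in the reciprocal cross and 3.21 and 2.0 in matDKO/CAST (-0.73 ± 0.18 SE, adjusted p = 0.016). Both matDKO/CAST libraries lay below all 4 wild-type libraries there.
For Nkx2-4 the values were 2.41 and 2.73 RPKM in B6/CAST, 3.34 and 3.35 in the reciprocal cross and 1.96 and 1.41 in matDKO/CAST (-0.66), and for Dlx3 4.21 and 3.52 RPKM in B6/CAST, 5.82 and 4.97 in the reciprocal cross and 3.29 and 2.31 in matDKO/CAST (-0.63). In both genes the matDKO/CAST libraries were again the lowest. Further differences were -0.67 at Lhx8, -0.59 at Nkx3-2 and -0.56 at Irx4, whose libraries are given above; at Irx4 1 matDKO/CAST library lay within the wild-type range.

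These 7 calls moved with single libraries. None of the 26 passed without matDKO/CAST epiblast replicate 2 or without CAST/B6 epiblast replicate 1, and none passed against B6/CAST alone, which shares the direction of the cross, whereas 14 passed without matDKO/CAST epiblast replicate 1 (12.8% of genes were then lower). At start site windows none of 37 passed (0.0919% of genes lower, 0.0145% higher; 30 were lower at an unadjusted p below 0.05), but edgeR on recovered reads called 21 of 26 lower over peaks (7.99% of all genes). Enrichment at the members' starts was 12.5 and 9.43 times the genome mean in the 2 matDKO/CAST epiblast libraries and 15.8 to 22.6 times in the wild type, and its part in the result was not tested. In ExE no member passed (1.75% of genes lower; 4 lower at an unadjusted p below 0.05). Whether the ExE minus epiblast difference of a member depended on the matDKO was tested as an interaction, and limma called none of the 26 peak sets (0 at an unadjusted p below 0.05). At start site windows none of 37 was called either, while 5 were higher at an unadjusted p below 0.05, as were 2015 of 20669 genes. The members' median of this interaction was 0.44 there, against 0.12 over all genes, and their median ExE minus epiblast difference was -0.02 in matDKO/CAST and -0.56 in the wild type.

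H3K4me3 at the members did not pass in either tissue (0 of 33 by limma and by edgeR; in epiblast 0.183% of genes were lower and 3.78% higher, in ExE 0.303% and 0.719%). At an unadjusted p below 0.05, 1 member was lower and 5 higher in epiblast, and 1 and 1 in ExE. Nor did any at start site windows, where 0.00484% of genes were lower in epiblast and 0.00968% in ExE (5 members higher in epiblast and 2 in ExE at an unadjusted p below 0.05). For H3K36me3 Lhx1, a factor of the node and kidney, was lower in the matDKO/CAST epiblast (0.362% of genes lower). Its values were 0.827 and 0.885 RPKM in B6/CAST, 1.18 and 1.54 in the reciprocal cross and 0.410 and 0.560 in matDKO/CAST, with the matDKO/CAST libraries below the rest (-0.69 ± 0.12 SE, adjusted p = 0.042). This call was lost without any one of the 8 wild-type libraries or without matDKO/CAST epiblast replicate 2, and over the whole gene body no member passed by limma (6 lower at an unadjusted p below 0.05).

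Allelic reads were examined at 151 informative peaks of 34 members, to see whether either parental copy carried more of a mark. A median H3K27me3 peak of these had 1249 reads assigned to a parent in B6/CAST epiblast and 2089.5 in CAST/B6, and a median H3K4me3 peak 590 and 227. The maternal share was near even, with medians of 48.8% to 51.9% for both marks across tissues and wild-type crosses. No member peak was imprinted, meaning higher on the same parent's allele in both reciprocal crosses (edgeR quasi-likelihood test per cross; 0 also at an unadjusted p below 0.05 in both crosses, and 0 with DESeq2; 0.319% of ExE H3K4me3 peaks and 1.35% of ExE H3K27me3 peaks were, and 0.0632% to 0.325% in the other tables). At shares this low a count of 0 does not set the members' peaks apart from others. A share of allelic reads that stayed with the strain in both crosses was called at 1 member peak, an H3K4me3 peak of Lhx4 in ExE (3.96% of ExE H3K4me3 peaks were).

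This peak (chr1:155721501-155725000) lies inside Lhx4, a pituitary and motor neuron gene, 17.0 kb from the nearest start and over 1 exon. The ExE libraries of B6/CAST held maternal shares of 36 and 33.8% (60 of 171 reads, 95% Wilson interval 28.3 to 42.5%) and those of the reciprocal cross 79.3 and 69.2% (50 of 68 reads, 62.0 to 82.6%), so that the CAST allele was the stronger in all 4 libraries. Both crosses passed (adjusted p = 0.0078 and 0.025). In matDKO/CAST the share was 34.1 and 34.8%. Epiblast gave 29.9 and 31.2% in B6/CAST, 73.6 and 63.2% in the reciprocal cross and 27.1 and 36.8% in matDKO/CAST, where only the last passed. The ExE call was lost when any one of its 4 libraries was left out and with DESeq2, and with the library as a block, which pairs the alleles of 1 library, the epiblast peak was called too, making 2. Intervals cover counting error only.

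A single fit over both reciprocal crosses, chosen after the per-cross results had been seen, separated strain from parent. It called a CAST-minus-B6 difference at 3 of 45 H3K4me3 peaks in epiblast (7.97% of all), 4 of 48 in ExE (13.3%) and 4 of 28 H3K27me3 peaks in ExE (20.8%). Lhx4 led in both tissues (log2 1.25 and 1.21). The H3K4me3 peak upstream of Pax4 had a maternal share of 35.0% of 517 reads in B6/CAST epiblast and 62.2% of 201 in CAST/B6 (log2 0.79, adjusted p = 0.0046).
At Nkx6-3 the peak over its 3′ end had maternal shares of 44.4 and 40.6% in B6/CAST epiblast and 61.0 and 60.0% in CAST/B6 (log2 0.57, adjusted p = 0.0056), and 43.4 and 42.4% against 52.9 and 59.6% in ExE (log2 0.43, adjusted p = 0.017). Irx6 had 36.5 and 32.9% in B6/CAST ExE and 59.4 and 57.8% in CAST/B6 (log2 0.73, adjusted p = 0.0015) at a peak over its starts. Six2, a kidney progenitor factor, was the only one of these peaks with the B6 allele higher, with 60.1 and 57.3% in B6/CAST and 44.4 and 43.2% in CAST/B6 (log2 -0.40, adjusted p = 0.038).

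The per-cross tests called member peaks as follows. In B6/CAST ExE H3K4me3 they were 5 of 48 (13.6% of all peaks), at Lhx4, Pax5, Nkx6-3, Irx6 and Six2, and in CAST/B6 ExE 1 of 48, at Lhx4 (5.95%). The Pax5 H3K4me3 call rested on 6 maternal of 40 reads (15.0%, 95% Wilson interval 7.06 to 29.1%) and had 7 of 13 in CAST/B6. In CAST/B6 ExE H3K27me3, 3 of 28 were called (21.8%), at Pax8 and at 2 peaks of Pax5, and in matDKO/CAST the H3K4me3 peaks of Lhx4 and Nkx6-3 in epiblast (7.18%) and of Pax5 in ExE (2.77%).

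For parent of origin the single fit called 1 member peak, H3K27me3 over and beyond the 3′ part of Pax5 in ExE (chr4:44479001-44600000, 5 exons, 110 kb from the nearest start; 5.77% of ExE H3K27me3 peaks were called). Maternal reads made up 51.4 and 48.2% in B6/CAST, against 59.3 and 61.5% in the reciprocal cross (log2 0.27 towards the maternal allele, adjusted p = 0.0086), while the same peak also had a CAST-minus-B6 difference of log2 0.36. Only CAST/B6 passed on its own. The matDKO/CAST shares were 52.8 and 49.6%, and no member peak differed in maternal bias between matDKO/CAST and B6/CAST (edgeR; 1 of 28 ExE H3K27me3 peaks at an unadjusted p below 0.05 and none of the other marks and tissues).

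**Figure D4:**
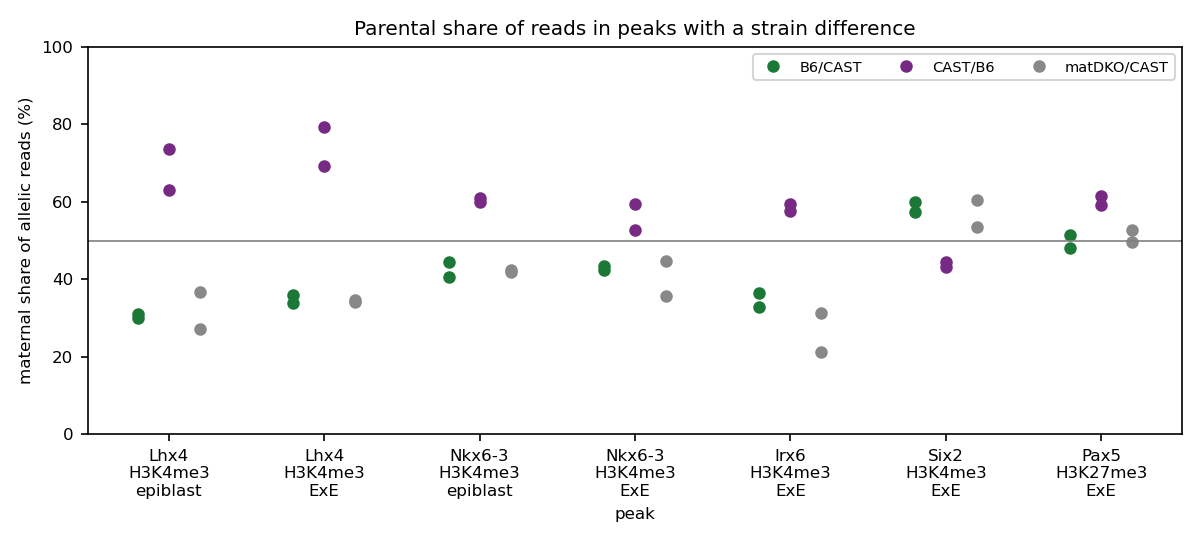
Maternal share of allelic reads in percent (y axis) in each library for 7 peaks of members (x axis), with B6/CAST in green, CAST/B6 in purple and matDKO/CAST in grey, 2 libraries each; the line marks an even share. At the Lhx4, Nkx6-3 and Irx6 peaks B6/CAST lies below the line and CAST/B6 above it, with matDKO/CAST on the side of B6/CAST, and at Six2 the order is reversed.

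Another 12 autosomal genes of the 6 families were annotated but had no peak linked to their symbol, because the peaks over their starts carried a neighbour's symbol. They were Dlx1, Dlx2, Dlx5, Dlx6, Irx5, Nkx1-2, Nkx2-3, Nkx2-6, Nkx6-2, Pax9, Six3 and Six6. At start site windows H3K4me3 was lower in ExE at 5 of the 12 (8.34% of all genes; median -0.61), led by Nkx2-6 (-2.19), the eye genes Six6 (-1.63) and Six3 (-1.48), Nkx1-2 (-1.40) and Dlx5 (-0.64). H3K27me3 was lower at 5 (10.2% of all genes; median -0.54), at Nkx6-2 (-0.81), Dlx6 (-0.74), Nkx2-3 (-0.67), Dlx1 (-0.67) and Dlx5 (-0.61). None was higher, and the difference was negative for both marks at all 12.

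The marks at genes that work with the members were counted in the same way. The list of 28 included partners of Lhx proteins (Ldb1, Ldb2, Lmo1 to Lmo4), of sine oculis homeobox proteins (Eya1 to Eya4, Dach1, Sall1), related LIM and TALE factors (Isl1, Isl2, Lmx1a, Lmx1b, Meis1, Meis2), Msx1 and Msx2, and signalling genes (Shh, Gli1 to Gli3, Fgf8, Bmp4, Wnt1). H3K4me3 over linked peaks was lower in ExE at 19 of 28 and higher at none (18.0% and 12.2% of all genes; median -0.65), with Lmo3 (-1.41), the LIM cofactor Ldb2 (-1.29) and Dach1 (-1.07) most. At start site windows 12 of 28 were lower (8.34% of all genes) and Bmp4 alone was higher (1.76; 1.94% of all genes). H3K27me3 over linked peaks was higher at 9 of 24 measured and lower at 8 (49.1% and 12.6% of all genes), with a median of 0.01. Sall1 (0.82), Fgf8 (0.73), Gli2 (0.42), Eya1 (0.41), Gli3 (0.40) and Eya2 (0.37) were among those higher, while Bmp4 (-1.57), which ExE secretes to pattern the epiblast, Meis1 (-1.21), Msx2 (-0.95), Isl1 (-0.55) and Shh (-0.50) were lower. H3K36me3 was higher at 6 of 16 and lower at 7 (56.7% and 15.1% of all genes). The median H3K4me3 difference of 10 housekeeping genes at start site windows was 0.04.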

How the data were processed

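ChIP-seq of H3K4me3, H3K27me3 and H3K36me3 and inputs were measured in E6.5 epiblast and ExE of 3 crosses. Per the study's methods and, for versions, the submitters' processing notes, the authors trimmed reads with Trim Galore 0.4.4, aligned them with Bowtie2 2.3.2 to GRCm38 with strain SNPs masked, split alleles with SNPsplit, called peaks per tissue with chromstaR and quantified in SeqMonk. In matDKO/CAST a second alignment to 129 and CAST added 129 reads to the maternal set (maternal shares of per-library totals over peaks reached 55.8%). The deposited RPKM values are reads per kb and per M mapped reads in consecutive 1 kb windows, with no input subtraction or enrichment scaling by the authors. The deposited allelic read counts are raw counts per peak and parent. The authors' per-sample peak files were not used here.

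In every one of the 51 libraries 100% of RPKM values worth up to 20 reads were whole multiples of 1 read (within 0.1 read), which gave the depths. Per gene, RPKM was averaged over the windows of its linked peaks, or over windows within 1 kb of starts (gene bodies for H3K36me3), from GENCODE annotation (GRCm38). limma 3.58.1 (R 4.3.3, empirical Bayes with trend) was fitted on log2(RPKM + 0.5) of the 12 libraries of a mark; folds on this scale understate changes of low genes. Adjusted p-values are Benjamini-Hochberg over all autosomal genes, two-sided, threshold 0.05. Allele counts were tested per cross with edgeR 4.0.16 (peaks with at least 20 reads in 1 allelic replicate). Alternatives included DESeq2 1.42.0 and edgeR on recovered reads, of which edgeR called 30 of 33 members lower for H3K4me3 (22.7% of all genes), 24 of 26 for H3K27me3 (27.1%) and 3 of 7 for H3K36me3 (28.1%). On simulated data with 200 changed genes, limma found 100% of changes of 1.5 log2 and 76%, 88% and 90% of changes of 0.75 for H3K4me3, H3K27me3 and H3K36me3. Figures used Python 3.11.15 with matplotlib 3.10.9.

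Same-numbered epiblast and ExE H3K4me3 libraries deviated together (r over genes 0.31 in B6/CAST, 0.37 in the reciprocal cross and 0.22 in matDKO/CAST). The numbers were therefore taken as pairing them, which is an assumption. In CAST/B6 and matDKO/CAST only replicate 2 occurs in both tissues, so the block pairs only part of the libraries. With that replicate block 30 of 33 members were lower (24.0% of all genes) and 1, Irx4, higher (17.2%). Replicates differed beyond counting noise (chi-square per degree of freedom 1.63 to 11.8), and p-values measure only the spread between these libraries. The members and gene lists were chosen with earlier results of these data known. Every member could be named; values of each library were given for up to 4 members with the largest called difference in each direction per mark, the 2 nearest to 0 and those called in matDKO or allelic comparisons. A few genes are included in the counts but are not reported one by one here.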

Additional observations from a re-analysis of the deposited data

Results flagged for a closer look

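The ExE minus epiblast difference in H3K36me3 differed between the reciprocal crosses, as an interaction in limma, at Irx4 (CAST/B6 minus B6/CAST 1.50 log2) and Lhx1 (-0.63) over linked peaks. The Irx4 value over linked peaks rests on a single 1 kb window of a peak called in ExE only. In the B6/CAST ExE libraries 1 read was worth 0.115 and 0.143 RPKM, the same as the Irx4 values given above for them. Over gene bodies the difference varied between the crosses at Irx4 (0.69), Nkx2-9 (0.64) and Lhx4 (0.52). For all genes the median of this interaction was -0.29 over linked peaks, and of 10499 genes 123 were called higher and 2937 lower. Over gene bodies it was 0.03, with 318 of 20753 genes higher and 1460 lower, and the members' median was 0.29, with 12 of 37 higher at an unadjusted p below 0.05.

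The share of reads from the CAST allele differed from that of the B6 allele over the reciprocal crosses, by the strain term of the single edgeR fit, in H3K4me3 peaks of Lhx4 (log2 CAST minus B6 1.25 in epiblast, 1.21 in ExE), Pax4 (0.79, epiblast), Nkx6-3 (0.57 in epiblast, 0.43 in ExE), Irx6 (0.73, ExE) and Six2 (-0.40, ExE). In H3K27me3 of ExE it differed in peaks of Pax5 (0.36 and 0.40), Pax8 (0.30) and Irx6 (0.24). The members' shares of called peaks were 3 of 45 for H3K4me3 in epiblast, 4 of 48 in ExE and 4 of 28 for H3K27me3 in ExE, against 7.97%, 13.3% and 20.8% of all peaks. At Irx6 both marks were higher on the CAST allele in ExE.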

How the results depend on the processing

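For the tissue comparison of H3K4me3, 29 of 33 members lower became 17 of 37 at start site windows and 24 to 30 with 1 library left out. For H3K27me3, 12 of 26 lower became 23 with median centring, 22 with enrichment scaling, 27 of 37 with enrichment scaling at start site windows, 24 with edgeR, 24 with DESeq2, 6 in B6/CAST alone and 8 to 9 with 1 library left out. For H3K36me3, 2 lower became 2 to 3 with 1 library left out, and DESeq2 called only Irx2 higher. The 7 members lower in matDKO/CAST H3K27me3 became 0 against B6/CAST alone, 19 with median centring, 21 with edgeR, 0 at start site windows and 0 to 14 with 1 library left out. For H3K4me3, 0 became 1 against B6/CAST alone and 2 with median centring. The 1 for H3K36me3 became 0 against B6/CAST alone, 0 with median centring, 0 over gene bodies and 0 to 1 with 1 library left out. The 1 allelic H3K4me3 peak became 0 with DESeq2, 2 with the library as replicate block, 7 in the fit over both crosses and 0 to 1 with 1 library left out, and the 0 for H3K27me3 became 4 in that fit. Where a group was left with 1 library, it was assumed to vary like the others. Calls over all genes moved too, for H3K27me3 from 1396 lower to 2601 with median centring and 2010 with enrichment scaling. No share over all genes is given for the tissue fits with 1 library left out. The member counts in this paragraph therefore show dependence on the settings and are not results about the members alone. The cause of these moves was not tested.

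Single members turned direction as follows. Irx1 H3K4me3 stood at 0.026 at start site windows, 0.27 there with enrichment scaling and 0.27 with median centring, and Nkx6-3 at 0.24 with median centring there. Lhx5 H3K27me3 stood at -0.61 at start site windows with enrichment scaling, -0.21 with edgeR and -0.22 with DESeq2. Pax5 H3K27me3, at 0 over its peaks, stood at -0.18 with median centring, -0.79 at start site windows, -1.0 and -0.74 there with enrichment scaling and median centring, -0.31 with edgeR and -0.32 with DESeq2. Epiblast and ExE H3K27me3 and H3K36me3 libraries shared only a number (r -0.05 to 0.21 and 0.04 to 0.18); with that replicate block 16 of 26 were lower for H3K27me3 (15.6% of all genes) and 2 of 7 for H3K36me3 (15.3%). For H3K36me3 and for allelic H3K27me3 peaks the block moved no count. Start site windows with scaling, start site or gene body windows for matDKO, the gene-wise spread and the fit over both crosses were chosen after seeing the data. H3K36me3, with the shallowest libraries and few linked peaks, limits what can be said of transcription at the members.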
